A study of Mus musculus with 6 samples.

Results

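The genes described here are 8 regulators of red cell and megakaryocyte development: the DNA-binding transcription factors Gata1, Klf1, Nfe2, Tal1 and Gfi1b, the bridging proteins Lmo2 and Ldb1, and the GATA1 cofactor Zfpm1 (FOG1). They were taken by name. Every probe on the array whose RefSeq accession belongs to one of them was used, which gave 9 probes of 41174, for 8 genes of 16535 with a RefSeq symbol. Ldb1 had 2 probes and each other gene had 1. The RNA came from whole blood of male C57BL/6J mice aged 9 weeks, an inbred strain, on a control diet or on a 50% food restriction (FR) lasting 2 weeks, with 8 animals per diet. The RNA of animals 1 to 4 of a diet made pool 2, that of animals 5 to 8 made pool 3, and pool 1 combined all 8. Each pool was measured on 2 two-colour Agilent arrays that carried FR and control RNA together, once with FR in the red dye Cy5 and once with FR in the green dye Cy3, 6 arrays in all. Only pools 2 and 3 share no animal, so they are the 2 replicates of every test, and pool 1 is a repeat measurement of the same animals on another slide. A pool averages its animals, so the spread between animals is not seen.

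GATA1, TAL1, LMO2 and LDB1 are known to form a complex on DNA in which GATA1 and TAL1 contact the DNA, LMO2 bridges them and LDB1 lets distant complexes pair. KLF1 activates adult globin and other red cell genes, NFE2 pairs with small MAF proteins and is needed for platelet release, GFI1B is a zinc finger repressor, and FOG1 binds GATA1 without touching DNA. Circulating red cells have no nucleus, so their RNA in blood is mostly that left in young red cells (reticulocytes), and platelets likewise carry RNA made in the megakaryocyte. White cells express some of these genes too, LMO2 and NFE2 among them.

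The members did not move together. Nfe2 and Lmo2 fell after food restriction, Zfpm1 rose, and Gata1, Tal1, Ldb1 and Gfi1b did not pass the test (limma, adjusted p under 0.05). Klf1 was too dim to be tested. Of 8 member probes tested, 2 were lower and 1 higher. Among all 13270 probes tested, 25.5% were lower and 3.99% higher, so the count of lower member probes is near that background, and a single higher probe is no count to read against it. Ratios are FR over control on the log2 scale. Each is set against the bulk of transcripts on its array, and the median over all probes tested was -0.01.

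As regulatory background, the 250 bases before the annotated start are shown for the member that rose (Zfpm1), for Gata1 and for Klf1, 5′ to 3′, from RefSeq (GRCm38.p6). The table holds 6 of the 8 members at 9 starts, and Nfe2 and Lmo2 are not among them. Capitals mark matches on either strand to the GATA motif (AGATAA and its variant AGATAG, or TGATAA and its variant TGATAG) and to the CACC box (CCNCNCCC), the letters that GATA factors and KLF1 are known to read.
Zfpm1 (chr8:122281891-122282140, plus strand): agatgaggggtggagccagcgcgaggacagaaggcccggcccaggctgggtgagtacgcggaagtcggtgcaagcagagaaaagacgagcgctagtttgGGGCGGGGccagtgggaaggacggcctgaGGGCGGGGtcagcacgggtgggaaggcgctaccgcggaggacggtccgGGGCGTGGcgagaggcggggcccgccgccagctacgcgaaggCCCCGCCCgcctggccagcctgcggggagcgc
Gata1 (chrX:7967911-7968160, minus strand): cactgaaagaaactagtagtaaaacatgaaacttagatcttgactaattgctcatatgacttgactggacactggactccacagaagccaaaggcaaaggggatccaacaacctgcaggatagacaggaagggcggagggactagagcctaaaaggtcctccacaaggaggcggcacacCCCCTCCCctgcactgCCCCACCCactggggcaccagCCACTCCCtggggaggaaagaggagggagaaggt
Klf1 (chr8:84901732-84901981, plus strand): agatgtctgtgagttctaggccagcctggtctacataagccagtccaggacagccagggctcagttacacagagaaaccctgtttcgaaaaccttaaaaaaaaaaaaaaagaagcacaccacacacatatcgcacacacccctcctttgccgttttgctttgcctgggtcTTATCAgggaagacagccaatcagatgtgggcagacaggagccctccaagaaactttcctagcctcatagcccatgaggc

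The Zfpm1 stretch held 4 CACC box matches and no GATA match, the Gata1 stretch 3 CACC box matches and no GATA match, and the Klf1 stretch 1 GATA match, beginning 80 bases before the start. Over the 9 starts of the 6 members, 4 held a GATA match (for Gfi1b, Tal1, Klf1 and Ldb1) and 7 a CACC box match. Of 32851 promoters of the same length in the table, 26.5% held a GATA match and 45.9% a CACC box match. These matches describe letters in the sequence. Binding was not measured.

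Nfe2, the blood-restricted subunit of NF-E2, was the member with the largest fall. In pool 1 its log2 ratio was -1.11 with FR in Cy5 and -1.45 with FR in Cy3, in pool 2 it was -1.26 and -1.35, and in pool 3 -1.22 and -0.93. All 6 arrays were lower in FR and both dye orientations gave ratios of similar size. The normalized log2 signal went from 9.93 in control to 8.64 in FR in pool 1. It went from 10.5 to 9.20 in pool 2 and from 10.28 to 9.20 in pool 3. No FR pool reached the level of a control pool, though pool 1 repeats the animals of pools 2 and 3. The share of all probes that separate in this way was not counted. The mean ratio was -1.19 ± 0.16 (SD, n = 2 pools), or 2.28-fold lower in FR (limma adjusted p = 1.62e-13). Of all probes tested, 3.86% had a lower ratio.

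Lmo2, the LIM-only protein that joins GATA1 to TAL1, fell as well. Its ratios were -0.97 and -0.99 in pool 1, -1.14 and -1.24 in pool 2, and -0.83 and -0.24 in pool 3, with FR in Cy5 given first. Lmo2 was lower in FR on every array, least on the array of pool 3 with FR in Cy3, which also had the lowest share of spots above background in FR. Its log2 signals were 8.52 in control and 7.54 in FR in pool 1. In pool 2 they were 9.09 and 7.90, and in pool 3 they were 8.65 and 8.11. The diets did not overlap, but pool 1 repeats the animals of the other pools and the share of all probes without overlap was not counted. The mean was -0.86 ± 0.46 (SD, n = 2 pools), or 1.82-fold lower (limma adjusted p = 3.02e-07), and -1.01 without that array (adjusted p = 0.000392). Nfe2 lay below Lmo2 in all 3 pools, by 0.30, 0.11 and 0.54, a mean gap of 0.33 against an SD of 0.30 between pools 2 and 3, so their order is within about 1 SD.

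Zfpm1, the cofactor that GATA1 needs for much of its work in red cell and megakaryocyte precursors, was the member that rose. The ratios were 0.43 and 0.63 in pool 1, 0.40 and 0.55 in pool 2, and 0.69 and 0.79 in pool 3. All 6 arrays were higher in FR, and the lowest of them was as far from 0 as 0.40. Log2 signals rose from 9.60 to 10.13 in pool 1, from 10.20 to 10.67 in pool 2 and from 9.96 to 10.69 in pool 3, where the lowest FR pool (pool 1) lay below the control level of pool 2, which was read on another slide. The mean was 0.61 ± 0.19 (SD, n = 2 pools), or 1.52-fold higher (limma adjusted p = 0.000451). The call ended when arrays were centred on their median in place of loess (0.40, adjusted p = 0.133) and when the pairing of the diets on an array was ignored, with no replicate block (0.61, adjusted p = 0.0740). Of all probes tested, 1.68% had a higher ratio.

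**Figure D1:**
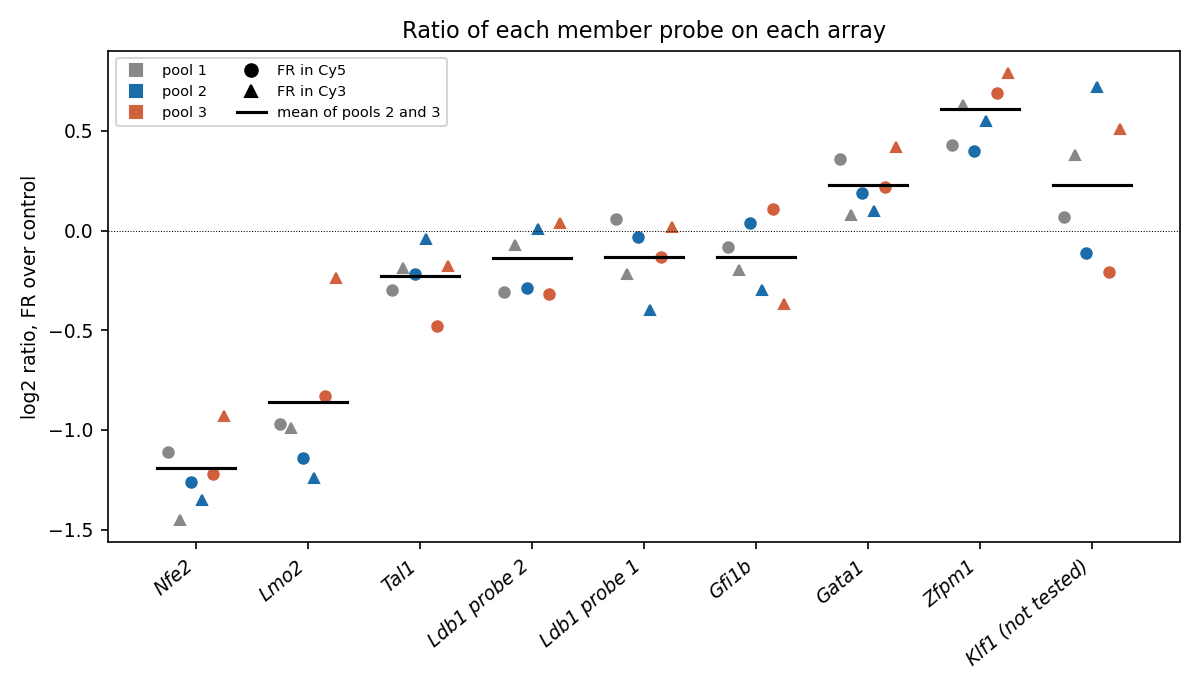
Log2 ratio of FR over control (vertical axis) for the 9 member probes on each of the 6 arrays, coloured by pool, with circles for FR in Cy5, triangles for FR in Cy3 and a bar at the mean of pools 2 and 3. Nfe2 and Lmo2 lie below 0 and Zfpm1 above 0 on all 6 arrays, while the points of Klf1, set last since it was not tested, separate by dye.

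Gata1, a factor that acts in both lineages, was slightly above control on every array and did not pass the test. Its probe is printed at 10 spots per array, and their averages gave ratios of 0.36 and 0.08 in pool 1, 0.19 and 0.10 in pool 2, and 0.22 and 0.42 in pool 3. The SD over the 10 spots of an array lay between 0.07 and 0.15, and single spots ran from -0.21 to 0.60. Spots of 3 of the 6 arrays were therefore on both sides of 0. Gata1 had log2 signals of 7.18 in control and 7.41 in FR in pool 1, 7.51 and 7.66 in pool 2, and 7.28 and 7.60 in pool 3, which overlap between the diets. The mean was 0.23 ± 0.12 (SD, n = 2 pools; limma adjusted p = 0.299), with a 95% interval from 0.951-fold to 1.45-fold. Median centring put it at 0.00, and Agilent's processed signals at 0.58 (adjusted p = 0.0758).

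**Figure D2:**
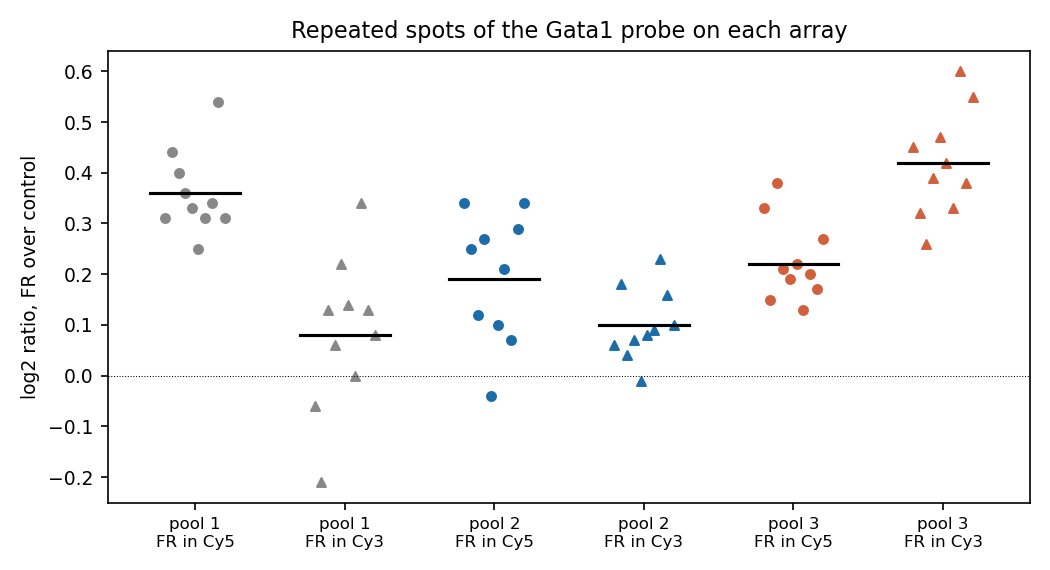
Log2 ratio of FR over control at each of the 10 spots of the Gata1 probe on each array (points), with a bar at the array's mean. The array means lie between 0.08 and 0.42, and the spots of 3 arrays extend below 0.

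Tal1, the basic helix-loop-helix partner of the complex, was below control on all 6 arrays by small amounts. The ratios were -0.30 and -0.19 in pool 1, -0.22 and -0.04 in pool 2, and -0.48 and -0.18 in pool 3. In each pool the array with FR in Cy5 was the lower one. The mean of -0.23 ± 0.14 (SD, n = 2 pools) did not pass (limma adjusted p = 0.303, 95% interval from 0.689-fold to 1.05-fold), although it passed when arrays with FR in Cy3 were left out (-0.35, adjusted p = 0.0483), with median centring (-0.46, adjusted p = 0.0239), when pool 1 was counted as a further replicate (-0.24, adjusted p = 0.0410) and with slide as a random block (-0.23, adjusted p = 0.000257).

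Ldb1, which carries no DNA-binding domain and links the complex to others of its kind, gave 2 probes that lay close together. The first averaged -0.13 ± 0.11 and the second -0.14 ± 0.0012 (SD, n = 2 pools), with adjusted p of 0.595 and 0.564. On single arrays the first ran from -0.40 to 0.06 and the second from -0.32 to 0.04, with 4 of 6 arrays below 0 for each. The second probe was lower on the 2 arrays of pools 2 and 3 with FR in Cy5 (mean -0.30) and near 0 with FR in Cy3 (0.03). The 95% intervals were 0.736-fold to 1.13-fold and 0.739-fold to 1.12-fold. Both probes passed as lower with median centring (-0.37 and -0.38, limma adjusted p = 0.0426 and 0.0229) and with slide as a random block (adjusted p = 0.0261 and 0.0112).

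Gfi1b, the repressor needed in both lineages, averaged -0.13 ± 0.0021 (SD, n = 2 pools; limma adjusted p = 0.557, 95% interval on the log2 scale from -0.40 to 0.14). The close match between pools hides a dye difference. With FR in Cy5 its ratios were -0.08, 0.04 and 0.11 in pools 1 to 3, and with FR in Cy3 they were -0.20, -0.30 and -0.37. FR was not well above background on the array of pool 3 with FR in Cy3. With median centring Gfi1b was at -0.35 and passed (limma adjusted p = 0.0183), and it passed with slide as a random block (adjusted p = 0.0243).

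Klf1, which drives adult globin transcription, was the member left out of the test, since on the array of pool 3 with FR in Cy3 neither diet was well above background. Its ratios were 0.07, -0.11 and -0.21 with FR in Cy5 and 0.38, 0.72 and 0.51 with FR in Cy3, in pools 1 to 3. The dye gap over pools 2 and 3 was thus -0.78, where the median size of this gap over all tested probes was 0.17 and 90% of probes stayed within 0.43. The mean over both dyes was 0.23 ± 0.11 (SD, n = 2 pools), and in a fit without the filter on dim probes it did not pass (limma adjusted p = 0.155). No direction is given for Klf1.

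In order of their mean ratio the tested members ran Nfe2, Lmo2, Tal1, Ldb1, Gfi1b, Gata1 and Zfpm1. Zfpm1 stood above Gata1 by 0.31, 0.33 and 0.42 in pools 1 to 3, a gap of 0.37 ± 0.07 (SD, n = 2 pools). Gata1 stood above Gfi1b by 0.36, 0.28 and 0.44, a gap of 0.36 ± 0.12. Lmo2 stood below Tal1 by 0.73, 1.06 and 0.21, a gap of 0.63 ± 0.60, which is about the spread between the pools. Within the run from Tal1 over both Ldb1 probes to Gfi1b, neighbours differed by at most 0.09 on average, less than the spread of each gap. These differences were not tested.

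**Figure D3:**
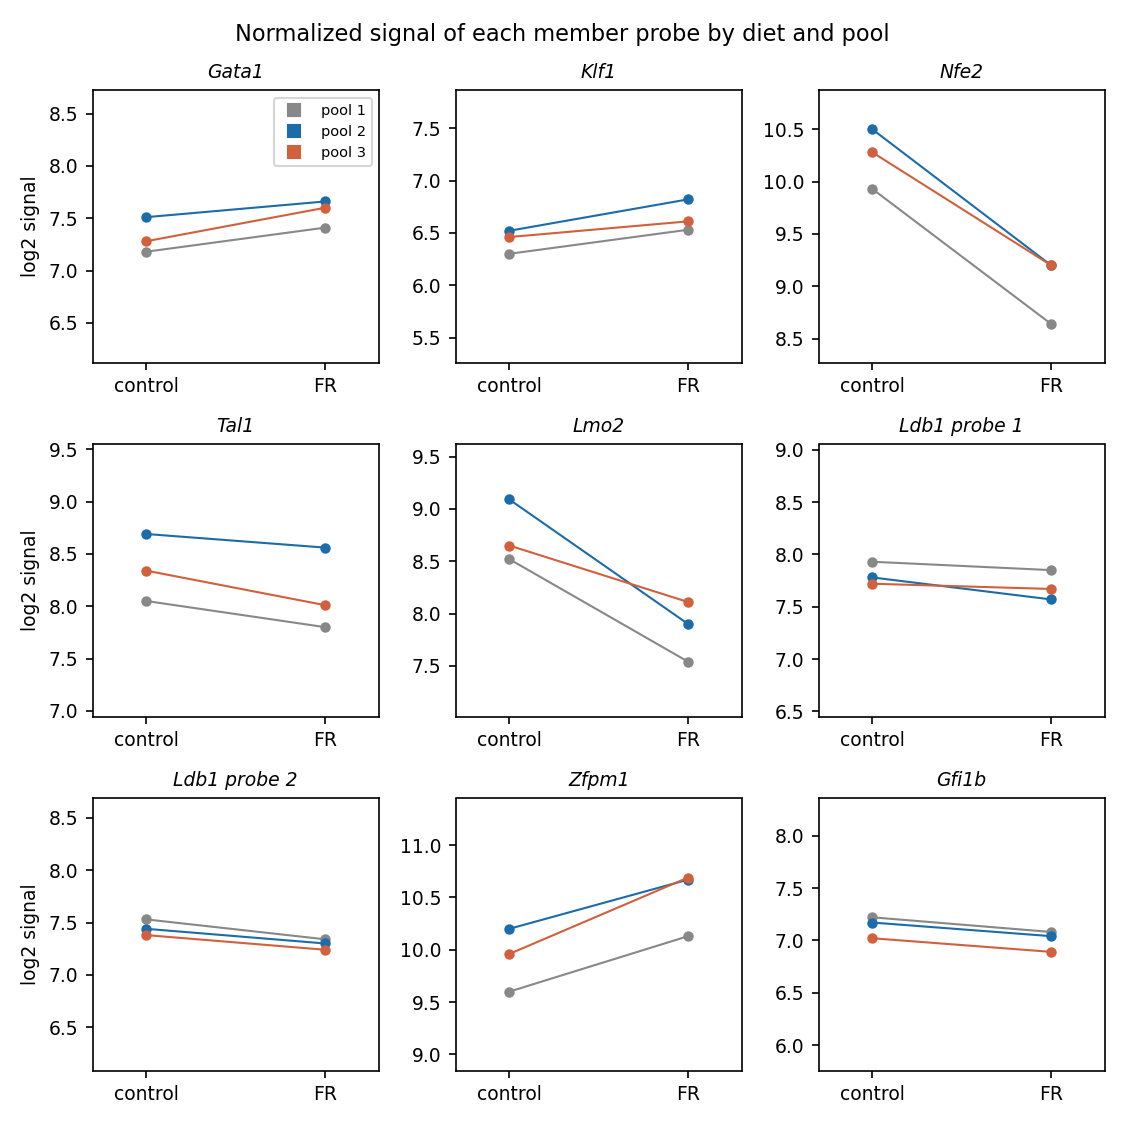
Normalized log2 signal (vertical axis, each panel spans the same range) of each member probe in control and FR for the 3 pools, each line joining the diets of 1 pool. The lines of Nfe2 and Lmo2 fall in all 3 pools, those of Zfpm1 rise, and the others are nearly level.

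The genes whose ratios over the 6 arrays lay closest to a member, by the root mean square difference among 7905 genes, were of many kinds. Nearest to Nfe2 were the glycolytic enzyme gene Pgk1 (difference 0.0810 on the log2 scale), the mitochondrial chaperone gene Hspd1 (0.0886) and Clu (0.0926). For Lmo2 they were Dap3 (0.121), S100a11 (0.122) and the copper chaperone gene Atox1 (0.127). For Zfpm1 they were the ATP synthase genes Atp5j2 (0.0493) and Atp5k (0.0630) and the superoxide dismutase gene Sod2 (0.0753). Gata1 was closest to Gpha2, Olfr123 and Rmnd5a (0.0526 to 0.0727), Tal1 to Gne, Setd1a and Il16 (0.0593 to 0.0811), Gfi1b to Unc13d, Api5 and Slc9a8 (0.0542 to 0.0721), and Ldb1 to Rfxap, Ggps1 and Eipr1 (0.0733 to 0.0872). No member was among the 3 genes nearest to another member, which says little about them, since the members are few among 7905 genes. The 6 points share animals and dyes, so this likeness is a description.

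Genes of the proteins that work with the members were called lower more often than higher. Of 23 partners and cofactors, 22 were on the array and 16 were tested, of which 10 fell and 1 rose while 5 missed the threshold. Their median was -0.48, and it was -0.97 with Agilent's processed signals, -0.99 from the series table and -0.26 with no filter on dim probes, with a value of -0.31 where both diets had to be above background. Among all 7913 named genes tested by 1 probe each, 28.4% fell and 3.29% rose. Lyl1, the closest relative of Tal1, fell most, at -1.77 ± 0.49 (SD, n = 2 pools). It was followed by Cbfb, the partner of RUNX factors, at -1.08 ± 0.26 and Cbfa2t3 (ETO2), a corepressor in the TAL1 complex, at -0.96 ± 0.36. In FR, Cbfb and Cbfa2t3 were each above background on 3 of the 4 arrays of pools 2 and 3. Both entered the test through control, where they were higher, and have no value in the fit of probes above background in both diets. Over 16 alternatives Cbfb ran from -2.39 to -0.83 and Cbfa2t3 from -1.64 to -0.80. Mafk, one of the small MAF proteins that pair with NFE2, was the gene that rose, at 0.85 ± 0.34 (limma adjusted p = 3.11e-07), and was higher in all 3 pools (0.90, 0.61 and 1.09). Mafg, the other small MAF gene tested, named after its values were seen, was at -0.11, -0.18 and -0.18 in pools 1 to 3 and did not pass (adjusted p = 0.442). Only 8 of the 16 were above background in both diets on all 4 arrays of pools 2 and 3, and Kdm1a was above background in FR on none of them. In a fit of probes above background in both diets, 4 fell and 1 rose, where 19.4% of all probes tested were lower and 6.66% higher. With no replicate block 4 fell, where 10.2% of all were lower.

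Related factors of neighbouring lineages had 12 of 18 members tested. Of these, 7 fell and 5 missed the threshold, beside 28.4% lower and 3.29% higher among all named genes tested. The median of the 12 was -0.41, and 0 of them rose at an adjusted or an unadjusted limma p under 0.05. The median was -0.88 with Agilent's processed signals, -1.01 from the series table, -0.63 with median centring and -0.16 with no filter on dim probes. Fli1, an ETS factor of megakaryocytes that white cells share, was at -1.48 ± 0.14, Mef2c at -0.89 ± 0.13 and Stat5b at -0.71 ± 0.22 (SD, n = 2 pools; limma adjusted p at most 4.52e-05). In FR, Mef2c and Stat5b were each above background on 3 of the 4 arrays of pools 2 and 3. Both entered the test through control, where they were higher, and have no value in the fit of probes above background in both diets. The call of Stat5b ended with no replicate block. Above background in both diets on all 4 arrays were 4 of the 12, and 2 fell in the fit of such probes (19.4% of all probes tested lower). With no replicate block 2 fell (10.2% of all lower), and 4 did with the prior degrees of freedom taken from 3 pools (16.3% of all lower).

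Red cell targets of these factors went both ways and were mostly within the test's limits. Of 39 genes listed, 34 were on the array and 31 tested, all above background in both diets. Of the 31, 7 rose and 2 fell while 22 missed the threshold, beside 3.29% higher and 28.4% lower among all named genes tested. The median of the 31 was 0.10, by pool it was 0.07, -0.02 and 0.28, and over the 17 alternatives it ran from -0.01 to 0.19. The mitochondrial iron importer gene Slc25a37 rose most, at 1.05 ± 0.61, followed by the transferrin receptor gene Tfrc at 0.68 ± 0.41 and Epb41, a protein of the red cell skeleton, at 0.64 ± 0.42 (SD, n = 2 pools). Trim10 was among those that fell, at -0.51 ± 0.53. The globin genes Hba-a1 and Hbb-bt, the heme enzyme gene Alas2 and the anion exchanger gene Slc4a1 averaged 0.01, 0.22, 0.09 and 0.13 and did not pass, but these means join dye orientations that point opposite ways. With FR in Cy5 alone Hba-a1 was at 0.84, Hbb-bt at 0.95 and Alas2 at 0.62, each passing (limma adjusted p at most 1.08e-07), and with FR in Cy3 alone they were at -0.81, -0.52 and -0.44 without passing. Slc4a1 was at -0.19 and 0.44 and passed in neither. No direction is given for these 4 genes. With median centring 4 rose and 4 fell and the median was -0.01, where 1.76% of all probes tested were higher and 37.8% lower. With the prior degrees of freedom taken from 3 pools, 3 rose and 1 fell (1.65% of all higher and 16.3% lower). With no replicate block 1 rose and 1 fell (1.13% of all higher and 10.2% lower). When pool 1 replaced pool 2, 8 red cell targets rose and 1 fell, where 4.45% of all probes tested were higher and 22.1% lower. When it replaced pool 3, 9 rose and 7 fell, where 15.1% of all were higher and 37.9% lower. The call of Epb41 ended under 3 of 17 alternatives (median centring, the prior degrees of freedom of 3 pools and no replicate block). That of Slc25a37 ended without the arrays that had FR in Cy5 and that of Tfrc with no replicate block. Trim10 lost its call under 6 of 17 alternatives.

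Megakaryocyte and platelet targets were lower. All 22 on the array, of 24 listed, were tested and above background in both diets. Of the 22, 17 fell while 5 missed the threshold, beside 28.4% lower and 3.29% higher among all named genes tested. The median of the 22 was -0.95, between -1.03 and -0.91 in the 3 pools, and 0 of them rose at an adjusted or an unadjusted limma p under 0.05. The platelet chemokine gene Ppbp was at -2.67 ± 0.55, the ADP receptor gene P2ry12 at -2.07 ± 0.32 and the tetraspanin gene Cd9 at -1.94 ± 0.20 (SD, n = 2 pools). Gp9 was at -1.17 ± 0.053 and Pf4 at -0.88 ± 0.0049. Itga2b, a classic GATA1 target, was at -0.38 ± 0.19, a call that ended under 7 of 17 alternatives, and Gp1bb was at -0.11 ± 0.26 and did not pass.

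**Figure D4:**
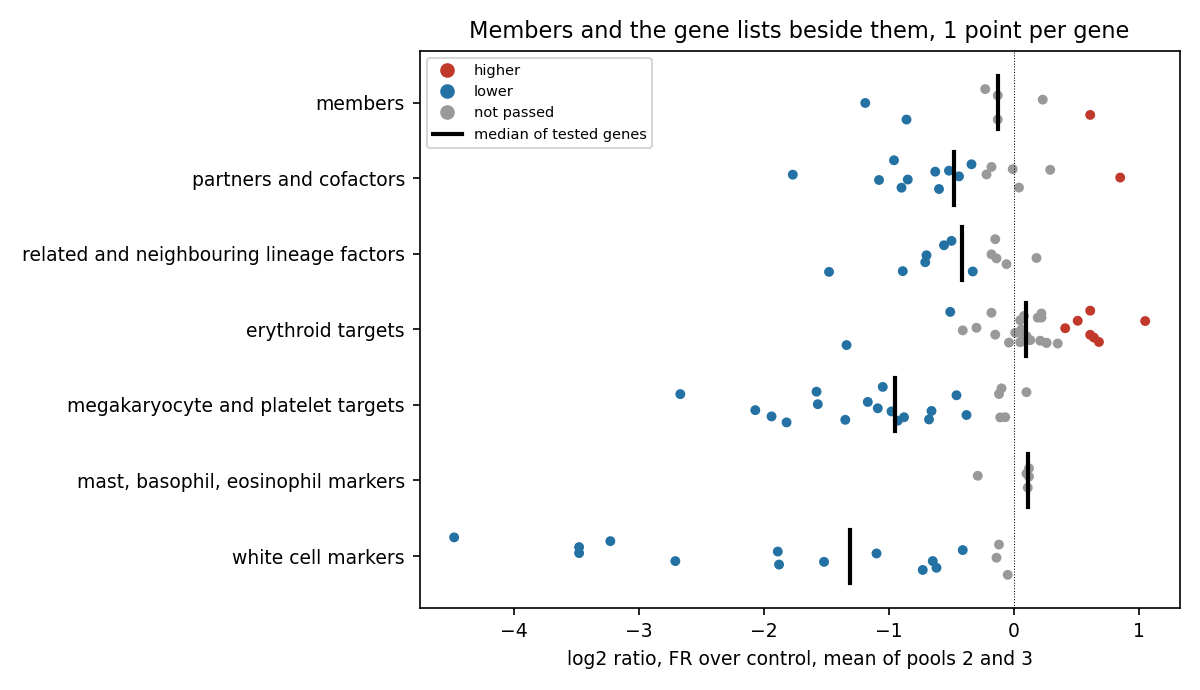
Mean log2 ratio of pools 2 and 3 (horizontal axis) for each tested gene of the members and of the lists beside them, 1 point per gene, red for higher, blue for lower and grey for not passed, with a bar at each list's median. The platelet and white cell lists lie mostly below 0 (medians -0.95 and -1.31), and the red cell targets spread around 0.10.

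Markers of white cells moved in the same pools as Nfe2, Lmo2 and their partners. Of 16 tested, 13 fell and 0 rose at an adjusted or an unadjusted limma p under 0.05, with a median of -1.31. Among all named genes tested, 28.4% fell and 3.29% rose at the adjusted threshold. The white cell falls were led by the B cell genes Cd79b (-4.48) and Ms4a1 (-3.48) and the monocyte gene Ctss (-3.48). FR was above background for Ms4a1 on 2 of the 4 arrays of pools 2 and 3. By the probe used, 11 of the 16 were above background in both diets on all 4 arrays, and the others entered the test through control. In the fit of probes above background in both diets (19.4% of all lower), 8 white cell genes fell and the median of the list was -0.69. With the main filter, the median of the list was -2.12 with Agilent's processed signals and -2.14 from the series table. The summed signal of these 16 genes lay between 49900 and 78200 in the control pools and between 15000 and 17300 in the FR pools. Over the 22 platelet genes it lay between 203000 and 215000 in control and between 76700 and 85800 in FR. Over the 31 red cell genes it lay between 684000 and 799000 in control and between 799000 and 910000 in FR. Such a sum weighs bright genes most. The red cell sum includes Hba-a1, Hbb-bt, Alas2 and Slc4a1, whose dye orientations point opposite ways, so no direction is read from it. Each tested gene of these 3 lists was above background on at least 1 array in each diet. Mast cells, basophils and eosinophils also use GATA1, and of 11 such markers 5 were tested, 0 passed at a limma adjusted p under 0.05 and 1 was lower at an unadjusted one, and their summed signal was between 1080 and 1400 in control and between 1040 and 1410 in FR. The part of these cell types in the ratios of the members was not tested, and in pooled whole blood fewer cells of a type and less RNA per cell cannot be told apart.

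The share of spots well above background ranged over the arrays from 37.2% to 62.1% for control and from 20.4% to 55.6% for FR, no spot was saturated, and the turned ratios of the arrays correlated across the tested probes between 0.706 and 0.939. With 2 pools the fit gave probes of like signal a common variance, so its adjusted p-values and 95% intervals overstate the certainty for a single gene. In 1 alternative the prior degrees of freedom came from a fit of 3 pools (5.53), while the prior variance stayed that of 2 pools. Pool 1 holds the animals of the other pools, so these 3 pools are not independent. The limma adjusted p in this alternative was 0.00455 for Nfe2, 0.0261 for Lmo2 and 0.0371 for Zfpm1, and no other member passed. The 95% interval of Gata1 on the log2 scale was then -0.12 to 0.59, beside -0.07 to 0.54 in the main fit.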

How the data were processed

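The authors deposited 6 scanner files of spot intensity values, and, per the submitters' processing notes, the scans were read by Agilent Feature Extraction 11.0.1.1. They also deposited a series table of log10 ratios. Each column matched log10 of the processed red signal divided by green, neither centred nor turned. Directions came from the dyes in the labels. Median signals were background-corrected with normexp (offset 50) and normalized by loess within arrays. Control and outlier spots were left out, spots of a probe and the 2 arrays of a pool were averaged, and log2 ratios were given the direction FR over control. Probes were named by RefSeq accession (GRCm38.p6), which matched 23374 of 41174. The test took the 13270 probes for which at least 1 diet exceeded background well on each of the 4 arrays of pools 2 and 3. The ratios were tested across all these probes with limma 3.58.1 in R 4.3.3 (eBayes with trend, two-sided, Benjamini-Hochberg), with the script tested on simulated data. The diets of a pool share an array, so the pool is a block by construction. Signals per diet came from Aquantile normalization after loess. In lists, a gene's brightest tested probe was used.

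The members and lists were chosen with earlier results of these data known. The text names the members, the up to 3 genes per list with the largest significant rise and fall of the same sign in 3 pools, the erythroid and platelet markers, and the 3 genes nearest to a member. Kdm1a and Mafg were named after their values were seen. A gene that this rule names is not reported here. The alternatives tried were 16 planned and 1 added.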

Additional observations from a re-analysis of the deposited data

How the results depend on the processing

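Nfe2 and Lmo2 stayed lower and significant under all 17 alternatives run, with ratios from -1.41 to -1.13 and from -1.11 to -0.74. Zfpm1 stayed above 0 in all 17 (0.40 to 0.75) and passed in 15. The 17th, leaving out the array of pool 3 with FR in Cy3, was chosen after seeing the data. In the main fit 2 of the 8 member probes tested were lower and 1 higher. Of all 13270 probes tested, 3910 were called (25.5% lower and 3.99% higher). With median centring, which moved the median of all probes to -0.20, 6 member probes were lower and 0 higher, where 37.8% of all probes tested were lower and 1.76% higher. With slide as a random block over 6 arrays, 6 were lower, 2 higher and 9192 probes called (40.1% of all lower and 29.2% higher), where the estimated correlation within a slide was -0.229 and arrays of 1 pool count as separate. With no replicate block, which ignores that both diets share an array, 0 member probes were higher and 1510 probes were called (10.2% of all lower and 1.13% higher). The calls numbered 2055 with both diets above background, a smaller table of 7880 probes. They numbered 2385 with the prior degrees of freedom taken from 3 pools. Replacing pool 2 or pool 3 by pool 1 gave 3518 and 7025 calls, and leaving out the single array 3303. The cause of these differences was not tested beyond what each setting changes. Gfi1b reached 0.08 with FR in Cy5 alone and the second Ldb1 probe 0.03 with FR in Cy3 alone, neither passing. Gata1 passed with slide as a random block and under no other of its 17 alternatives. Signal over background limits Klf1 and Gfi1b.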
